A study of Mus musculus with 21 samples.

Results

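The data below compare mouse embryonic fibroblasts (MEFs) of 2 floxed lines before either floxed gene was deleted. They come from the 3 Trf1f/f Ad-GFP libraries and the 3 Rtel1f/f Ad-GFP libraries that the labels give without TMPyP4 and without the RTEL1 CA vector, which makes 6 of the 21 RNA sequencing libraries of the series. Terf1 is the official symbol of the gene that the labels call Trf1. In the study, both lines carry loxP-flanked alleles and serve as the starting point for Cre-driven deletion, and an adenovirus that expresses GFP alone is the control for the one that also expresses Cre. The groups are called Trf1f/f +GFP and Rtel1f/f +GFP here, after the labels.

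Both groups are cultured fibroblasts homozygous for a floxed allele, Trf1f/f in one and Rtel1f/f in the other, that were infected with Ad-GFP and grown in medium with 15% serum per the labels. RNA was collected 96 h after infection per the study. The other 5 groups, used for reference, are Trf1f/f +Cre, Rtel1f/f +Cre, Rtel1f/f +GFP treated with TMPyP4 (a ligand that stabilizes G-quadruplex DNA, 10 μM for 48 h), and Rtel1f/f cells transduced with RTEL1 C1252A/C1255A (labelled RTEL1 CA) and infected with Ad-GFP or with Ad-Cre. Each genotype is represented by 1 line, and no age, sex, strain or embryo is given, so the floxed allele, the donor embryo, the strain and the history of each culture cannot be told apart in any difference below. The labels call the 3 libraries of a group biological replicates without naming separate embryos, so p-values measure the spread between libraries of a group, which may be technical. That spread was estimated from all 21 libraries in 7 groups, so groups outside the comparison enter it.

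MEFs are a mixed mesenchymal culture from the body of the embryo. Such cells keep a memory of where in the embryo they arose, carried mainly by the homeobox (Hox) genes, whose order along each cluster follows their order of use along the body and limb axes. They secrete much of the extracellular matrix, and they hold a low or high interferon tone, in which interferon-activated transcription factors drive antiviral genes through interferon-stimulated response elements in their promoters.

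Total counts were 39208515 to 42532282 per library in Trf1f/f +GFP and 43732660 to 47300825 in Rtel1f/f +GFP cells. The targeted genes were present in both groups. Terf1 (chr1:15805546-15844052 in GRCm38.p6), which encodes the shelterin subunit TRF1, had 27.9, 29.6 and 30.3 CPM (read counts scaled to the library total) in Trf1f/f +GFP and 28.7, 28.9 and 27.3 CPM in Rtel1f/f +GFP libraries, and the groups overlapped (log2 fold change 0.05 ± 0.09, adjusted p = 0.641, edgeR quasi-likelihood test with Benjamini-Hochberg adjustment, as for every adjusted p below; ± is the SE of a log2 fold change and the SD over 3 libraries of a level). Rtel1 (chr2:181319711-181356616), the helicase gene, had 49.1, 47.9 and 50.04 CPM against 66.2, 59.1 and 60.2 CPM, lower in each Trf1f/f +GFP library (log2 fold change −0.34 ± 0.08, adjusted p = 9.6e-04). After Cre, the mean of Terf1 was 0.0608 CPM in the Trf1f/f line. Rtel1 had a mean of 29.5 CPM in Rtel1f/f +Cre cells, counted over the whole gene.

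A gene counted as called where its adjusted p did not exceed 0.01. Among 13719 tested genes, 7529 (54.9%) were called between the lines, 4162 (30.3%) higher and 3367 (24.5%) lower in Trf1f/f +GFP. Of these, 1964 (14.3% of tested genes) were at least 2-fold higher and 1055 (7.69%) at least 2-fold lower. In 9963 genes (72.6%) the libraries of both groups did not overlap. The counts within a group of genes are read below against these shares. The median log2 fold change of all tested genes was 0.02, and that of the called genes was 0.80 in absolute size.

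A principal component analysis of the 21 libraries placed the lines on its first component (73.5% of the variance), where the 6 Trf1f/f libraries scored from 100.5 to 109.7 and the 15 Rtel1f/f libraries from −54.7 to −20.3. The second (13.98%) held the Rtel1f/f +GFP libraries at −64.3 to −49.9, below the other 12 Rtel1f/f libraries, which ran from −27.7 to 41.9. The Rtel1f/f +GFP libraries therefore stand apart from the rest of their own line, and 2475 tested genes (18.04%) were above and 2517 (18.3%) below every one of these 12 libraries. Counts from other libraries of the same lines are for this reason given beside most gene lists below.

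The comparison of Trf1f/f +Cre with RTEL1 CA +Cre cells shares no library with the one above, although both groups had received Cre. Terf1 was deleted in one, and the floxed Rtel1 was deleted in the other, which carried the RTEL1 CA vector. These deletions and the vector are confounded with the line there. It is called the +Cre set below. It called 8157 genes (59.5%). Of the 4162 genes higher in Trf1f/f +GFP, 2878 were also higher there (69.1% of the first list and 66.3% of the 4344 in the second), and 254 were lower. Of the 3367 lower genes, 2118 were lower again (62.9% of the first list and 55.5% of the 3813 in the second), and 186 were higher. Across the 13719 genes the log2 fold changes had a Pearson correlation of 0.81, a description of genes that are not independent of each other. Trf1f/f +Cre against Rtel1f/f +Cre called 8179 genes (59.6%), and Trf1f/f +GFP against RTEL1 CA +GFP, which reuses the Trf1f/f +GFP libraries, called 8023 (58.5%). The line difference itself differed between the +GFP set and the +Cre set with RTEL1 CA in 4494 genes (interaction term, adjusted p of at most 0.01).

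**Figure D1:**
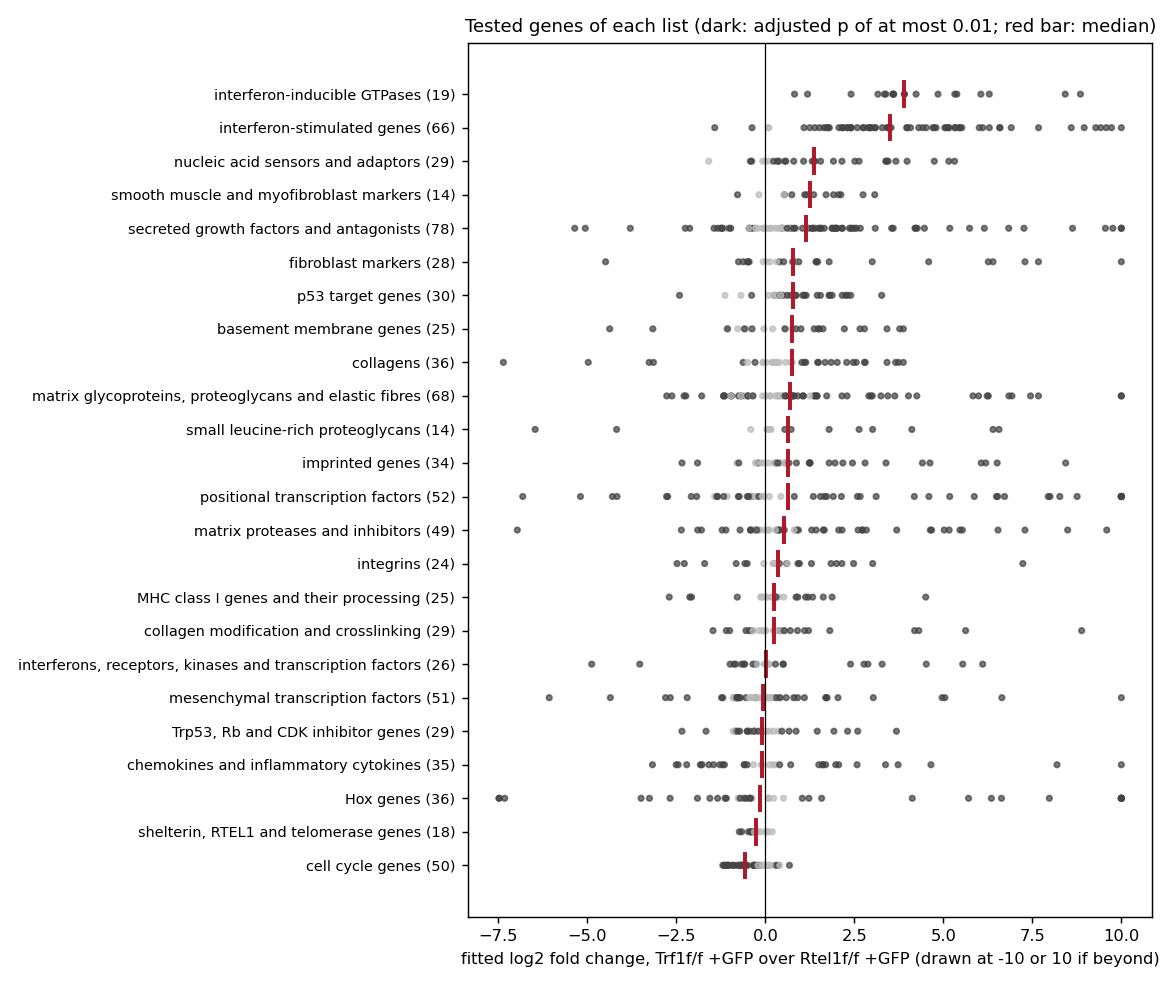
Fitted log2 fold change (horizontal axis) of each tested gene in the gene lists with at least 14 tested members (rows, number of tested genes in parentheses), Trf1f/f +GFP over Rtel1f/f +GFP, with called genes dark and the list median as a red bar. The medians of interferon-inducible GTPases (3.90) and interferon-stimulated genes (3.50) lie farthest to the right and that of cell cycle genes (−0.56) farthest to the left.

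The lines differed in the genes of the sex chromosomes. Xist (chrX:103460373-103483233), the noncoding RNA that coats the inactive X chromosome, had 518, 601 and 437 CPM in Rtel1f/f +GFP and 0.0928, 0.0919 and 0.397 CPM in Trf1f/f +GFP libraries (log2 fold change −11.39 ± 0.32, adjusted p = 6.7e-15). The 15 Rtel1f/f libraries all held 424 to 785 CPM of it, and no Trf1f/f library exceeded 0.397 CPM. The reverse held for 4 genes of the Y chromosome. Ddx3y, an RNA helicase gene, had 106, 115 and 115 CPM in Trf1f/f +GFP libraries and 0 counts in all 3 Rtel1f/f +GFP libraries, at least 1784-fold higher against a floor of 3 counts per library. For the translation factor gene Eif2s3y the same bound was 1018-fold, for the histone demethylase genes Uty and Kdm5d it was 622-fold and 609-fold. No Rtel1f/f library held more than 0.118 CPM of any of the 4 genes, and each was at 34.5 CPM or more in every Trf1f/f library. These libraries thus hold Y-linked transcripts without Xist in the Trf1f/f line and Xist without Y-linked transcripts in the Rtel1f/f line.

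Among the X-linked partners of those genes, which escape X inactivation, Kdm6a (log2 fold change −0.86 ± 0.07, adjusted p = 2.7e-09), Kdm5c (log2 fold change −0.75 ± 0.10, adjusted p = 3.7e-06) and Eif2s3x (log2 fold change −0.60 ± 0.07, adjusted p = 5.7e-07) were lower in Trf1f/f +GFP. Ddx3x did not pass the test, at 519, 546 and 579.9 CPM against 597, 517 and 483 CPM (log2 fold change 0.04 ± 0.08, adjusted p = 0.664), whereas in the +Cre set it was lower (−0.84, interaction adjusted p = 1.1e-05). Usp9y, Zfy1, Zfy2 and Tsix, the antisense transcript of Xist, had too few counts to be tested.

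The Hox genes, which mark position, differed by cluster. Of 39 Hox genes in the table, 36 were tested, and 13 were higher and 16 lower in Trf1f/f +GFP. All 8 tested genes of the Hoxd cluster (chr2:74668225-74748271) were higher. Hoxd13, the most 5′ gene of the cluster and a factor of the distal limb, had 117, 134 and 142 CPM in Trf1f/f +GFP libraries and 0.0445, 0 and 0.02003 CPM in Rtel1f/f +GFP libraries, a ratio of 6252-fold (95% interval 2139 to 30321). Its neighbours Hoxd10, Hoxd11 and Hoxd12 had 0 counts in the 3 Rtel1f/f +GFP libraries. Their levels in Trf1f/f +GFP were 8.599 ± 0.747, 19.1 ± 0.651 and 12.6 ± 1.04 CPM, at least 137-fold, 304-fold and 201-fold higher.

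In the Hoxc (chr15:102921131-103036856) and Hoxb (chr11:96271330-96354020) clusters no gene was higher in Trf1f/f +GFP, while 7 of 9 and 6 of 8 tested genes were lower. The posterior genes led. Chosen after their values were seen, Hoxc10 had 3.27, 2.62 and 3.25 CPM against 28.9, 28.7 and 29.7 CPM (log2 fold change −3.26 ± 0.12, adjusted p = 4.3e-14), Hoxc9 had 3.13, 2.53 and 2.46 against 28.6, 31.1 and 31.8 CPM (log2 fold change −3.49 ± 0.16, adjusted p = 1.5e-12) and Hoxb9 had 21.6, 22.3 and 25.9 against 157, 141 and 148 CPM (log2 fold change −2.68 ± 0.09, adjusted p = 2.3e-14). The groups did not overlap in any of these. The Hoxa cluster (chr6:52155367-52260880) was mixed, with 5 genes higher and 3 lower of 11 tested. At its 5′ end Hoxa13, another distal limb factor, had 5.22, 4.28 and 3.895 CPM in Trf1f/f +GFP and 0 counts in Rtel1f/f +GFP (at least 71.02-fold higher), and Hoxa11 had 13.3, 15.8 and 14.9 against 0.2003, 0.247 and 0.381 CPM (log2 fold change 5.71 ± 0.23, adjusted p = 2.8e-13). In the +Cre set 12 of the 13 higher genes were higher again, 11 of the 16 lower genes were lower again, and none was called the other way, out of 13 higher and 11 lower there.

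**Figure D2:**
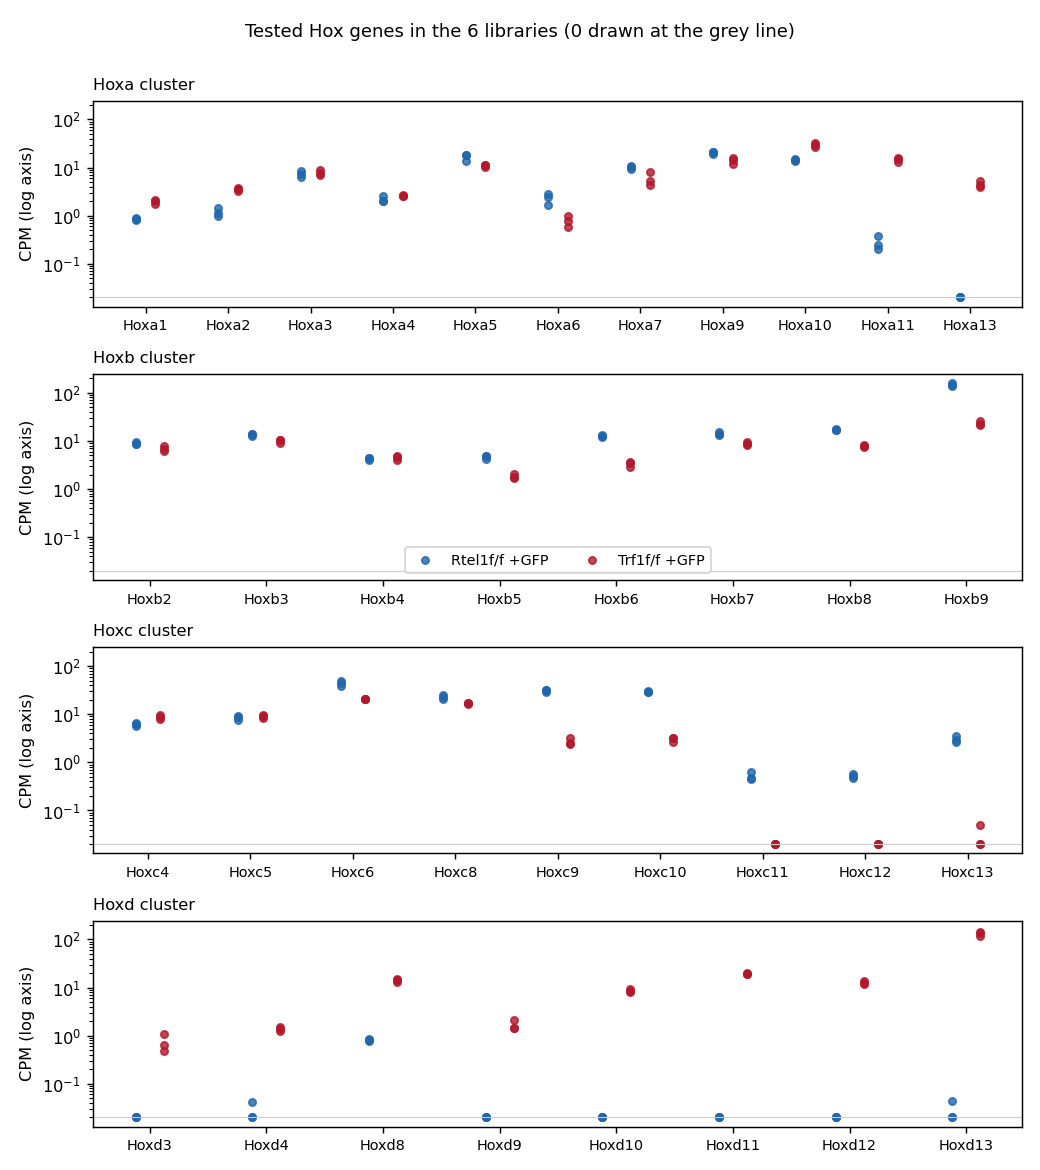
Level in CPM (log axis) of the 36 tested Hox genes, ordered by paralogue number within each of the 4 clusters, in the 3 Rtel1f/f +GFP (blue) and 3 Trf1f/f +GFP (red) libraries, 1 point per library, with 0 drawn at the grey line. All 8 Hoxd genes are higher in Trf1f/f +GFP, and the Hoxc genes from Hoxc9 to Hoxc13 and Hoxb9 are higher in Rtel1f/f +GFP.

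Other transcription factors with regional roles also differed. Of 52 tested positional factors, 26 were higher and 17 lower in Trf1f/f +GFP, 25 and 11 of them by at least 2-fold, and 13 others of the list were too low to be tested. Tbx5, a determinant of the forelimb and heart, had 15.4, 14.99 and 14.5 CPM in Trf1f/f +GFP and 0, 0 and 0.02003 CPM in Rtel1f/f +GFP libraries, a ratio of 2148-fold (95% interval 385 to 84887). Tfap2b, a factor of the neural crest, face and limb, had 30.04, 29.8 and 32.5 CPM and 0 counts (at least 489.7-fold higher), and the homeobox genes Alx1 and Msx1 had 13.6 ± 0.629 and 6.41 ± 0.9903 CPM and 0 counts (at least 216-fold and 102-fold higher). Lower, among genes chosen after their values were seen, were Pax1, a factor of the sclerotome, at 1.02, 0.6896 and 0.695 against 29.7, 28.8 and 29.97 CPM (log2 fold change −5.19 ± 0.13, adjusted p = 5.6e-16), and Pax9, at 4.92, 4.07 and 4.94 against 28.2, 34.3 and 30.9 CPM (log2 fold change −2.75 ± 0.12, adjusted p = 5.7e-13). All 26 higher genes were higher again in the +Cre set, which had 30 higher genes, and 11 of the 17 lower ones were lower again and 1 was higher, of 12 lower there.

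Among 51 tested mesenchymal transcription factors, 15 were higher and 17 lower (median log2 fold change −0.06). Foxd1, a forkhead factor of stromal progenitors, had 2.203, 2.02 and 1.91 CPM in Trf1f/f +GFP and 129, 143 and 142 CPM in Rtel1f/f +GFP libraries (log2 fold change −6.07 ± 0.15, adjusted p = 5.6e-16). Ebf3 had 15.3, 16.1 and 16.7 against 0.0223, 0 and 0 CPM, a ratio of 2299.5-fold (95% interval 412 to 90870.3). Hic1, a repressor found in quiescent mesenchymal cells, had 37.5, 15.7 and 12.6 against 0.267, 0.185 and 0.2003 CPM (log2 fold change 6.64 ± 0.54, adjusted p = 1.2e-08), with 1 library of Trf1f/f +GFP well above the others, and Osr2 had 11.5, 8.23 and 7.96 against 0.267, 0.308 and 0.3005 CPM (log2 fold change 4.96 ± 0.22, adjusted p = 7.5e-13). Rtel1f/f +GFP cells were above the other 12 Rtel1f/f libraries in 26 of these 51 genes (51.0%, against 18.04% of all tested genes).

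Both groups expressed the genes that define fibroblasts. All 28 fibroblast markers were tested, and their summed level was 15511 to 18659 TPM (a transcript measure scaled by length and library) in Trf1f/f +GFP and 11757 to 12986 TPM in Rtel1f/f +GFP libraries. The 5 of highest TPM, which encode collagen I chains, fibronectin, vimentin and S100A4, differed by less than 2-fold. Fn1 had 1867 ± 199.9 and 1725 ± 151 TPM, Vim had 2795 ± 381 and 1653 ± 98.5 TPM, and S100a4 had 2204 ± 233 and 1551 ± 196 TPM. Vim was higher in Trf1f/f +GFP (log2 fold change 0.78 ± 0.12, adjusted p = 1.1e-05), S100a4 was higher with a call that was lost without either of 2 libraries of each group (adjusted p up to 0.0536), and Fn1 (adjusted p = 0.364) did not pass.

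Other fibroblast markers differed more. Of the 28, 16 were higher and 6 lower in Trf1f/f +GFP, 11 and 1 by at least 2-fold. Thy1 (chr9:44043384-44048579), the surface antigen CD90, had 250.3, 259 and 269 CPM in Trf1f/f +GFP and 0.0668, 0.0411 and 0.02003 CPM in Rtel1f/f +GFP libraries, a ratio of 6194-fold (95% interval 2846 to 16880.1). Postn, which encodes the matricellular protein periostin, had 2064, 2175 and 2317 against 8.68, 12.95 and 10.5 CPM (log2 fold change 7.67 ± 0.23, adjusted p = 7.1e-15). Fap, the fibroblast activation protease, had 8.84, 9.65 and 9.08 against 0.0223, 0.0617 and 0.0801 CPM (log2 fold change 7.29 ± 0.29, adjusted p = 1.8e-13), and Lum, the proteoglycan lumican, had 5.103, 5.93 and 5.58 against 0.111, 0.0617 and 0.02003 CPM (adjusted p = 1.6e-11). No library of one group overlapped the other in these 4 genes. The one marker at least 2-fold lower, named after its value was seen, was Cd34, an antigen of progenitor and adventitial cells, at 14.4, 15.8 and 16.2 against 415, 298 and 328 CPM (log2 fold change −4.49 ± 0.11, adjusted p = 5.6e-16). In the +Cre set 13 of the 16 higher markers were higher and 2, Nt5e and S100a4, were lower, out of 21 higher and 4 lower there. Of the 6 lower markers 2 were lower again and 3, Col6a1, Fbln1 and Pdgfrb, were higher. These 5 were named after their values were seen.

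The summed levels of epithelial, endothelial, leukocyte and skeletal muscle markers were low in both groups, whereas the sums of smooth muscle, cartilage and bone, and neural markers were not. The part of other cell types in the differences above was not tested. Fewer cells of a type and less RNA per cell cannot be told apart in these bulk libraries. Of 18 epithelial markers 8 were at 3 counts or fewer in each of the 6 libraries and 8 were tested, 3 higher and 2 lower, and the list's summed level was 5.28 to 6.84 TPM in Trf1f/f +GFP and 4.47 to 5.23 TPM in Rtel1f/f +GFP. Of 15 leukocyte markers 10 were at 3 counts or fewer in both, at 13.7 to 16.04 and 9.7 to 10.4 TPM in sum. Endothelial markers summed to 30.2 to 33.6 and 15.3 to 21.9 TPM with 5 of 13 that low, and skeletal muscle markers to 6.89 to 8.68 and 4.57 to 6.13 TPM with 11 of 18. Smooth muscle markers summed to 8992 to 9274 and 3452 to 3872 TPM, cartilage and bone markers to 3542 to 4073 and 459.9 to 690.3 TPM, and neural and glial markers to 211 to 224 and 116 to 153 TPM. Such a sum can rest on few genes. Of 18 cartilage and bone markers 10 were tested and 4 were at 3 counts or fewer in each of the 6 libraries. The means of Acan were 0.357 TPM in Trf1f/f +GFP and 2.45 TPM in Rtel1f/f +GFP, and those of Col2a1 were 1.26 and 40.5 TPM. Of 18 neural and glial markers 9 were tested and 6 were that low. Mesothelial markers summed to 54.96 to 60.6 and 8.23 to 12.6 TPM, pericyte markers to 55.4 to 65.6 and 61.3 to 71.7 TPM and adipocyte markers to 41.5 to 47.7 and 19.97 to 25.2 TPM.

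Where such markers were measurable, some differed. Erg, an endothelial factor, had 15.1 ± 0.502 against 4.78 ± 1.64 CPM (log2 fold change 1.66 ± 0.22, adjusted p = 2.8e-06), and Flt1, a VEGF receptor, had 11.7 ± 0.633 against 5.77 ± 1.54 CPM (log2 fold change 1.02 ± 0.14, adjusted p = 4.7e-06). Cd68 was higher (log2 fold change 1.99 ± 0.19, adjusted p = 3.0e-08) and Cd14 lower (log2 fold change −0.46 ± 0.13, adjusted p = 0.00624) at levels up to 6 CPM, the latter with a call lost when any of 3 libraries was left out. Of 3 tested mesothelial markers all were higher, Msln (49.7, 57.9 and 56.2 against 10.8, 6.93 and 8.79 CPM) and Bnc1 (2.74, 2.64 and 2.63 against 0.467, 0.329 and 0.361 CPM) by over 2 on the log2 scale, but none of the 3 was higher in the +Cre set and 2 were lower. There Msln was lower (−0.53, interaction adjusted p = 1.7e-09) and Bnc1 was at −0.42 (adjusted p = 0.0251, interaction adjusted p = 2.7e-08), and against RTEL1 CA +GFP cells Bnc1 was lower (−0.89, adjusted p = 6.0e-05). Trf1f/f +Cre against Rtel1f/f +Cre had 1 of the 3 higher and 0 lower, with Bnc1 at 2.71 (adjusted p = 1.1e-09). The mean of Bnc1 was 4.97 and 3.15 CPM in RTEL1 CA cells with GFP and Cre, 0.353 CPM in Rtel1f/f +Cre cells and 0.818 CPM with TMPyP4. Of 7 tested skeletal muscle markers 4 were higher and 1 lower, none of them a myogenic factor, since Myod1, Myog, Myf5 and Pax7 were too low to be tested.

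Smooth muscle and myofibroblast genes stood higher in Trf1f/f +GFP. Of 14 tested, 11 were higher and 1 lower, with a median log2 fold change of 1.26, and all 11 were higher again in the +Cre set. Acta2, the α-smooth muscle actin of myofibroblasts, had 1932, 1954 and 1849 CPM in Trf1f/f +GFP and 489, 406 and 422 CPM in Rtel1f/f +GFP libraries (log2 fold change 2.12 ± 0.09, adjusted p = 3.4e-13). The actin-binding Tagln had 1042, 1115 and 995 against 278, 231 and 251 CPM (log2 fold change 2.05 ± 0.10, adjusted p = 2.3e-12), and Cnn1, calponin, had 61.8, 57.5 and 50.7 against 7.84, 5.76 and 6.63 CPM (log2 fold change 3.07 ± 0.17, adjusted p = 1.6e-11). Lmod1 was higher as well (log2 fold change 2.74 ± 0.12, adjusted p = 5.2e-13).

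Cartilage, adipocyte and neural markers split. Col2a1 and Acan, the collagen II and aggrecan genes of cartilage, were lower in Trf1f/f +GFP, at 1.29 ± 0.05205 against 8.85 ± 2.71 CPM for Acan (log2 fold change −2.77 ± 0.21, adjusted p = 2.0e-09). Spp1, osteopontin, was higher at 2197, 2493 and 2552 against 398, 228 and 252 CPM (log2 fold change 3.04 ± 0.17, adjusted p = 3.9e-11), and Phex was higher at low levels (log2 fold change 2.36 ± 0.30, adjusted p = 1.5e-06) and did not pass in the +Cre set (adjusted p = 0.161). Lpl, lipoprotein lipase, had 10.5, 12.2 and 13.1 CPM and 0 counts in Rtel1f/f +GFP (at least 189.8-fold higher), Fabp4 (log2 fold change 3.42 ± 0.30, adjusted p = 1.6e-08) and Cebpa (log2 fold change 1.19 ± 0.21, adjusted p = 6.1e-05) were higher, and Dgat2 was lower (log2 fold change −1.88 ± 0.15, adjusted p = 3.2e-09). Of the genes linked with neurons and progenitors, Stmn2 (log2 fold change 4.08 ± 0.13, adjusted p = 1.1e-14) and Map2 (log2 fold change 3.51 ± 0.12, adjusted p = 4.1e-14) were higher and Sox2 (log2 fold change −2.46 ± 0.10, adjusted p = 1.6e-13) and Nes (log2 fold change −0.82 ± 0.14, adjusted p = 3.8e-05) lower. Of 5 tested pericyte markers 1, Mcam, was called, at a difference of 0.26 that no longer passed in 9 of 13 alternative fits.

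Secreted growth factors and their antagonists differed in most members, with 45 higher and 14 lower of 78 tested (median log2 fold change 1.13), 40 and 11 by at least 2-fold. The binding proteins of insulin-like growth factors Igfbp5 and Igfbp3 had 111, 105 and 109 and 9.18, 8.69 and 8.56 CPM in Trf1f/f +GFP. In Rtel1f/f +GFP, Igfbp5 had 0.0223, 0.0206 and 0.02003 CPM, a ratio of 5184-fold (95% interval 1773 to 25140.3), and Igfbp3 had 0 counts (at least 140.2-fold higher). Dkk2, a Wnt antagonist, had 54.8, 54.2 and 54.7 against 0.08904, 0.0617 and 0.0601 CPM (log2 fold change 9.55 ± 0.23, adjusted p = 3.9e-16), and the BMP family ligand Gdf6 had 2.55 ± 0.0768 CPM and 0 counts (at least 40.5-fold higher). In the +Cre set 39 of the 45 were higher and 3 lower, of 53 higher there.

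Imprinted genes showed 20 higher and 4 lower of 34 tested (median 0.63). H19, the maternally expressed RNA beside Igf2, had 512, 503 and 503 against 4.41, 8.45 and 7.87 CPM (log2 fold change 6.19 ± 0.20, adjusted p = 1.6e-14). Meg3 and Rian, noncoding RNAs of the Dlk1 to Dio3 domain, had 164, 133 and 161 and 305, 351 and 355 CPM in Trf1f/f +GFP against 1.54, 1.81 and 1.66 and 4.43, 5.71 and 4.95 CPM (log2 fold change 6.51 ± 0.20, adjusted p = 7.1e-15 and log2 fold change 6.06 ± 0.15, adjusted p = 5.6e-16). Peg3, a paternally expressed zinc finger gene, had 21.6, 18.04 and 21.3 against 0.0445, 0.0206 and 0.1002 CPM (log2 fold change 8.44 ± 0.23, adjusted p = 1.7e-14). All 4 were higher without overlap. Of the 20 higher genes 17, and of the 4 lower genes 3, were called in the same direction in the +Cre set. Lower was Cdkn1c, an imprinted CDK inhibitor gene, at 16.8, 10.7 and 11.1 against 61.4, 66.6 and 68.5 CPM (log2 fold change −2.34 ± 0.23, adjusted p = 8.4e-08).

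Interferon targets were higher in Trf1f/f +GFP with few exceptions. Of 67 listed interferon-stimulated genes (ISGs), 66 were tested, and 62 were higher and 2 lower in Trf1f/f +GFP (93.9% higher against 30.3% of all tested genes), all 62 by at least 2-fold, with a median log2 fold change of 3.50. Their summed level was 11353 to 12220.3 TPM in Trf1f/f +GFP and 1941 to 2173 TPM in Rtel1f/f +GFP libraries. The exceptions among called genes were Ifitm1 (log2 fold change −1.42 ± 0.31, adjusted p = 5.1e-04), a membrane protein that blocks virus entry, and Slfn9 (log2 fold change −0.37 ± 0.10, adjusted p = 0.00276), while Ifitm2 and Trafd1 did not pass. Both lower genes were higher in the +Cre set.

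Antiviral effectors were among the genes with the largest differences. Oas1g and Oas1a, 2′-5′ oligoadenylate synthetases that activate RNase L, had 15.7, 15.4 and 15.6 and 83.7, 90.3 and 89.4 CPM in Trf1f/f +GFP libraries. In Rtel1f/f +GFP, Oas1g had 0 counts (at least 248-fold higher) and Oas1a had 0.0668, 0.144 and 0.1603 CPM (log2 fold change 9.42 ± 0.25, adjusted p = 1.3e-14). These 2 genes are close copies, and reads could be divided between them. Sp100, a nuclear body protein, had 22.1, 23.3 and 25.2 against 0.0223, 0.0411 and 0.02003 CPM, a ratio of 843-fold (95% interval 329 to 3094), and Phf11d had 104, 115 and 124 against 0.0445, 0.0617 and 0.2804 CPM (log2 fold change 9.72 ± 0.33, adjusted p = 8.8e-14).

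To set these genes beside their regulatory sequence, the promoter (250 bases before to 50 after the start of transcription, from RefSeq, build GRCm38.p6) was searched for the letters GAAANNGAAA on either strand, the core of the interferon-stimulated response element, with overlapping matches counted. They occurred in 1131 of 32851 promoters (3.44%). Of the 53 ISGs matched to a promoter 26 held them (49.1%), as did 11 of 12 matched GTPase genes (91.7%), against 1079 of 27025 genes (3.99%). A match describes the letters of this window and is no evidence of binding. The 4 promoters below belong to the called ISGs with a match, a mean of at least 5 CPM and the largest differences, and capitals mark the matches. The matches in the Oas1g and Oas1a promoters overlap each other.
Oas1g (chr5:120887564-120887863, minus strand): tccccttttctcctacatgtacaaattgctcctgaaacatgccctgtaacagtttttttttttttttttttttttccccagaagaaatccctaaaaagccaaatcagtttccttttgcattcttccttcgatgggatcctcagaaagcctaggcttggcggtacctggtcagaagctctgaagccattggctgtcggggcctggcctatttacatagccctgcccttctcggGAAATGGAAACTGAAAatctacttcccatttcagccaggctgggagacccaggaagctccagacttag
Oas1a (chr5:120907476-120907775, minus strand): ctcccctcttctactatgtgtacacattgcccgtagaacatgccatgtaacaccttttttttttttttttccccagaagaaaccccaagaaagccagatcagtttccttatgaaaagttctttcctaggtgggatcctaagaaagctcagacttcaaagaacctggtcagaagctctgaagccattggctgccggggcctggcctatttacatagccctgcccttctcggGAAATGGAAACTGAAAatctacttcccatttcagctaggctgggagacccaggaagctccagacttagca
Trim30a (chr7:104465144-104465443, minus strand): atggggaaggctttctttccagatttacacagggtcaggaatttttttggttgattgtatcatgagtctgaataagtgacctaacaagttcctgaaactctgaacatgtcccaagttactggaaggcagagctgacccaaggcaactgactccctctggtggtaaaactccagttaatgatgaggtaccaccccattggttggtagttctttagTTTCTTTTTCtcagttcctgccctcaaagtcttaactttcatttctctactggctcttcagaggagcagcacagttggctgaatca
Ifit3b (chr19:34607707-34608006, plus strand): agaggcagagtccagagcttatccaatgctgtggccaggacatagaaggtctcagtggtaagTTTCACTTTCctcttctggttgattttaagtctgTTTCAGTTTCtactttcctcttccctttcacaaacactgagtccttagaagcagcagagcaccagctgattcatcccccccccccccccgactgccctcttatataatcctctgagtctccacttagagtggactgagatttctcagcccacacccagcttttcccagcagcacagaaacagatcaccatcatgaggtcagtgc

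Trim30a and Ifit3b, shown for this rule, had 50.4, 54.3 and 59.1 CPM against 0.601, 0.576 and 0.521 CPM (log2 fold change 6.59 ± 0.26, adjusted p = 2.4e-13) and 137, 137 and 162 against 3.94, 3.21 and 3.65 CPM (log2 fold change 5.34 ± 0.16, adjusted p = 7.4e-15). TRIM30A is a ubiquitin ligase family member, and IFIT3B belongs to the IFIT proteins that bind viral RNA.

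Chosen after their values were seen, a pair of widely used ISGs shows the size of the difference at high levels. Isg15, a ubiquitin-like modifier, had 388, 432 and 445 CPM in Trf1f/f +GFP and 26.6, 21.4 and 26.8 CPM in Rtel1f/f +GFP libraries (log2 fold change 4.08 ± 0.17, adjusted p = 7.0e-13), and Ifit1, which binds uncapped RNA, had 444, 439 and 475 against 68.5, 52.3 and 55.3 CPM (log2 fold change 2.95 ± 0.15, adjusted p = 7.7e-12). Every Trf1f/f +GFP library was above every Rtel1f/f +GFP library in both.

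The level differed among the other groups of both lines. In 45 of 66 ISGs Rtel1f/f +GFP cells were above every one of the other 12 Rtel1f/f libraries (18.04% of all tested genes), and in none below them. The mean of Isg15 was 24.96 CPM in Rtel1f/f +GFP cells, 11.4 with TMPyP4, 7.32 and 11.3 in RTEL1 CA cells with GFP and Cre, and 17.2 in Rtel1f/f +Cre cells, against 422 in Trf1f/f +GFP and 769 in Trf1f/f +Cre cells. All 66 were higher in the +Cre set (median 5.72), and 58 of them differed between the sets by the interaction test. Against RTEL1 CA +GFP cells, with the same Trf1f/f +GFP libraries, 65 of the 66 were higher and none lower. The +Cre set includes the deletions of Terf1 and of the floxed Rtel1, whose parts in this were not tested.

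**Figure D3:**
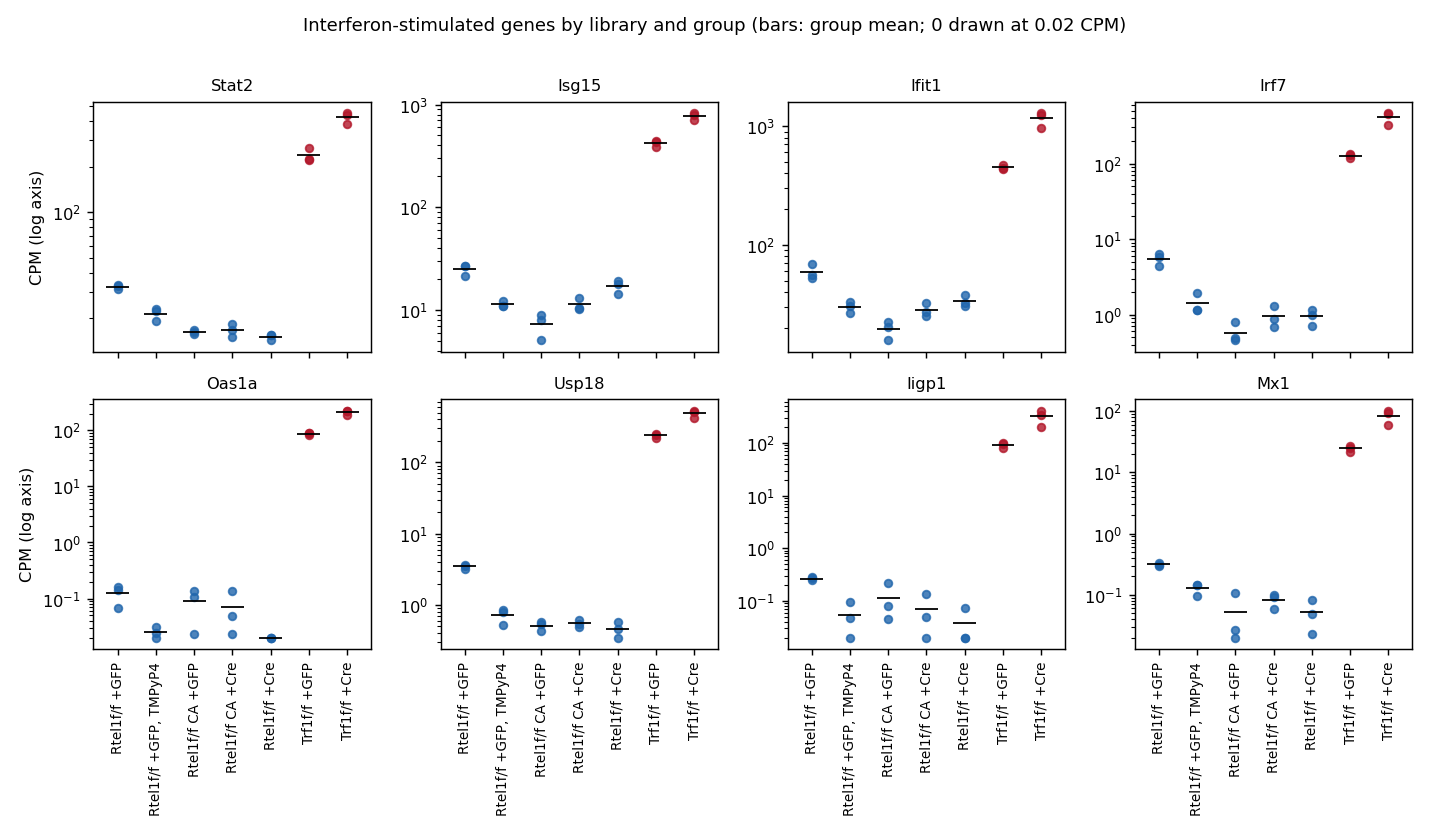
Level in CPM (log axis) of 8 interferon genes in the 21 libraries, 1 point per library with a bar at the mean of each group, Rtel1f/f groups in blue and Trf1f/f groups in red. In all 8, every Trf1f/f library lies above every Rtel1f/f library, and the mean of Rtel1f/f +GFP cells is the highest of the Rtel1f/f groups.

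Interferon-inducible GTPases, which attack membranes around pathogens, were higher in all 19 tested cases (median 3.90), 18 of them by at least 2-fold, and 3 others had too few counts. Gvin1 had 335, 293 and 296 CPM in Trf1f/f +GFP and 0.423, 0.144 and 1.402 CPM in Rtel1f/f +GFP libraries (log2 fold change 8.85 ± 0.79, adjusted p = 4.1e-08). Iigp1 had 80.3, 94.01 and 101 against 0.245, 0.267 and 0.2804 CPM (log2 fold change 8.42 ± 0.38, adjusted p = 5.1e-12), Mx1, which blocks influenza virus in the nucleus, had 21.9, 25.4 and 27.1 against 0.312, 0.329 and 0.3005 CPM (log2 fold change 6.29 ± 0.26, adjusted p = 2.8e-13), and Tgtp1 had 40.5, 50.8 and 52.4 against 0.757, 0.699 and 0.701 CPM (log2 fold change 6.05 ± 0.26, adjusted p = 9.5e-13). Several GTPase genes are close copies of each other, so their single values are less certain than the direction of the group. All 19 were higher in the +Cre set as well.

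Upstream of these targets the difference was uneven. Of 26 tested interferons, receptors, kinases and transcription factors, 10 were higher and 10 lower (median 0.02). The +Cre set had 17 higher and 2 lower, and of the 10 lower genes 2 were lower again and 3 were higher. Rtel1f/f +GFP cells were above the other 12 Rtel1f/f libraries in 18 of the 26 genes (69.2%, against 18.04% of all tested genes). Irf7, the factor that amplifies interferon induction, had 133, 128 and 118 against 4.34, 5.88 and 6.29 CPM (log2 fold change 4.52 ± 0.22, adjusted p = 7.6e-12), Stat2 had 226, 221 and 265 against 31.1, 33.1 and 32.5 CPM (log2 fold change 2.88 ± 0.09, adjusted p = 1.4e-14), and Usp18, which restrains the receptor and removes ISG15, had 222, 241 and 254 against 3.16, 3.56 and 3.69 CPM (log2 fold change 6.11 ± 0.14, adjusted p = 3.6e-16). Some receptor chains were lower. Ifnlr1, of the type III receptor, had 0.209, 0.184 and 0.347 against 2.11, 3.08 and 3.37 CPM (log2 fold change −3.53 ± 0.27, adjusted p = 1.8e-09), and, chosen after its value was seen, Ifnar1 of the type I receptor had 92.99, 85.5 and 91.6 against 129, 142 and 132 CPM (log2 fold change −0.58 ± 0.06, adjusted p = 2.7e-07). Ifnlr1 had means of 0.431, 0.224, 0.335 and 0.275 CPM in the other 4 Rtel1f/f groups and did not pass in the +Cre set (−0.75, adjusted p = 0.0597, interaction adjusted p = 1.0e-04). In the same 4 groups Ifnar1 had means of 98.4, 85.6, 80.7 and 81.8 CPM. The ligand gene Ifnb1 was barely detected, at 0.186, 0.299 and 0.198 against 0, 0 and 0.0601 CPM.

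Nucleic acid sensors and adaptors were higher in 23 and lower in 2 of 29 tested genes (median 1.37). Zbp1, a sensor of Z-form nucleic acids, had 27.04, 27.6 and 30.1 against 0.534, 0.822 and 1.002 CPM (log2 fold change 5.15 ± 0.21, adjusted p = 3.1e-13), and Dhx58, the RIG-I like receptor LGP2, had 37.5, 38.02 and 40.2 against 2.45, 2.28 and 2.58 CPM (log2 fold change 3.98 ± 0.15, adjusted p = 1.1e-13). The PYHIN genes Ifi203 (log2 fold change 4.75 ± 0.17, adjusted p = 4.8e-14) and Ifi205 (log2 fold change 5.31 ± 0.24, adjusted p = 1.4e-12), near copies of their relatives, were higher too. Of the 23, 21 were higher in the +Cre set, which had 22.

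Of 25 tested genes of class I antigen presentation 10 were higher and 4 lower (median 0.25), and the share called, 56.0%, was close to the 54.9% of all tested genes. Tap1, a peptide transporter, had 52.9, 45.3 and 46.5 against 10.7, 14.2 and 14.5 CPM (log2 fold change 1.87 ± 0.14, adjusted p = 1.2e-09), and Psmb8, an immunoproteasome subunit, had 23.2, 22.8 and 22.03 against 4.65, 8.28 and 9.07 CPM (log2 fold change 1.63 ± 0.21, adjusted p = 2.1e-06). H2-T24 was higher (log2 fold change 4.51 ± 0.26, adjusted p = 4.7e-11) and H2-T10 lower (log2 fold change −2.13 ± 0.16, adjusted p = 1.1e-09), both members of a polymorphic family of close copies, and the latter did not pass in the +Cre set (0.29, adjusted p = 0.0913). Rtel1f/f +GFP cells were above the other 12 Rtel1f/f libraries in 15 of the 25 (60%, against 18.04% of all tested genes). In the +Cre set 20 of the 25 were higher and 2 lower, with 2 of the 4 lower genes among the higher.

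Chemokines and inflammatory cytokines split evenly, with 14 higher and 14 lower of 35 tested (median −0.11). Cxcl14 had 7.98, 7.82 and 7.39 CPM and 0 counts in Rtel1f/f +GFP libraries (at least 123-fold higher), Cxcl5, which attracts neutrophils, had 2.74, 3.91 and 3.62 against 0.312, 0.288 and 0.381 CPM (log2 fold change 3.37 ± 0.27, adjusted p = 2.9e-09), and Cxcl15 had 6.03, 4.96 and 3.796 against 0, 0.0411 and 0 CPM, a ratio of 356-fold (95% interval 98.02 to 2942). Ccl9 was lower, at 1.25, 0.965 and 1.24 against 10.3, 9.89 and 10.998 CPM (log2 fold change −3.17 ± 0.16, adjusted p = 8.1e-12). Of the lower genes 5 were lower and 5 higher in the +Cre set.

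Extracellular matrix genes differed in many members, most often with the higher level in Trf1f/f +GFP. In the matrix lists below, the share called ran from 58.6% (collagen modification and crosslinking) to 75.5% (proteases and inhibitors), against 54.9% of all tested genes. The share higher ran from 37.9% (collagen modification and crosslinking) to 57.1% (small leucine-rich proteoglycans), against 30.3%. Of 36 tested collagen genes 17 were higher and 6 lower (median 0.74). The chains of collagen I, the main fibrillar collagen, did not pass the test. Col1a1 had 7369.98, 3919.6 and 3349 CPM in Trf1f/f +GFP and 4975, 4642 and 4654 CPM in Rtel1f/f +GFP libraries (log2 fold change 0.04 ± 0.48, adjusted p = 0.953), and Col1a2 had 5892, 4807 and 4515 against 5600.1, 5150.1 and 5121 CPM (log2 fold change −0.06 ± 0.18, adjusted p = 0.785), with overlapping groups. In the other 4 Rtel1f/f groups the mean of Col1a1 was 1989, 1396, 1083 and 1299 CPM, and against the RTEL1 CA +GFP cells the same Trf1f/f +GFP libraries were 1.81 higher on the log2 scale (adjusted p = 0.00417).

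Col7a1, the anchoring fibril collagen, had 117, 78.1 and 70.8 against 6.99, 7.01 and 5.93 CPM (log2 fold change 3.74 ± 0.34, adjusted p = 5.2e-08). Col2a1 had 4.36, 2.87 and 2.28 against 76.8, 115 and 108 CPM (log2 fold change −4.98 ± 0.44, adjusted p = 3.6e-08), Col6a4 had 0.139, 0.04597 and 0.0248 against 9.68, 14.2 and 12.4 CPM (log2 fold change −7.36 ± 0.34, adjusted p = 1.3e-12) and Col23a1 had 0.139, 0.184 and 0.372 against 1.402, 2.69 and 2.58 CPM (log2 fold change −3.27 ± 0.39, adjusted p = 6.9e-07). In Rtel1f/f +GFP cells Col2a1 was well above the other Rtel1f/f groups, whose means were 7.39 CPM with Cre and 18.1 CPM with TMPyP4, and in the +Cre set it did not pass (0.21, adjusted p = 0.658), while Col23a1 was higher there (1.93, adjusted p = 0.00741). Of the 36 collagen genes 33 were higher and 1 was lower in the +Cre set, all 17 among the 33 and 4 of the 6 lower genes as well, and 16 differed between the sets.

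Small leucine-rich proteoglycans, which bind collagen fibrils, were higher in 8 and lower in 2 of 14 tested. Aspn, asporin, had 202, 231 and 228 against 8.41, 15.7 and 14.1 CPM (log2 fold change 4.12 ± 0.23, adjusted p = 9.9e-11). The 2 lower genes, fibromodulin (Fmod, 0.974, 0.988 and 0.645 against 46.7, 97.6 and 87.98 CPM, log2 fold change −6.47 ± 0.26, adjusted p = 2.8e-13) and Prelp (1.55, 1.56 and 1.36 against 19.9, 31.6 and 29.9 CPM, log2 fold change −4.18 ± 0.22, adjusted p = 9.7e-12), were at their highest in the Rtel1f/f +GFP libraries. Fmod had means of 4.39, 1.31, 0.417 and 0.493 CPM in the other 4 Rtel1f/f groups and Prelp had means of 6.39, 1.12, 0.639 and 1.16 CPM, and in the +Cre set both were higher in the Trf1f/f line (1.25 and 1.60, interaction adjusted p = 2.1e-10 and 4.3e-10).

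Matrix glycoproteins, proteoglycans and elastic fibre genes were higher in 35 and lower in 15 of 68 tested (median 0.70), and all 35 were higher in the +Cre set, out of 54 there. Of the 15 lower genes 4 were lower again and 6 were higher. The summed level of the list overlapped between the groups, at 10611 to 11819 TPM in Trf1f/f +GFP and 9373 to 11284 TPM in Rtel1f/f +GFP libraries. That of the collagen genes did not, but by a narrow margin, at 9164, 6544 and 6391 TPM in Trf1f/f +GFP and 6363, 6348 and 5929 TPM in Rtel1f/f +GFP libraries. In it 1 Trf1f/f +GFP library stood well above the others. Tnn, tenascin-W, had 17.1, 13.5 and 11.6 CPM and 0 counts in Rtel1f/f +GFP libraries (at least 224-fold higher). Spock3 had 35.8, 39.9 and 38.6 against 0, 0.0411 and 0.0401 CPM, a ratio of 1367-fold (95% interval 534 to 5019.6), and Srpx had 6.63, 6.21 and 6.97 against 0.0445, 0.0411 and 0.02003 CPM, a ratio of 189-fold (95% interval 80.8 to 584). Rtel1f/f +GFP cells were above the other 12 Rtel1f/f libraries in 36 of the 68 genes (52.9%, against 18.04% of all tested genes) and in 20 of the 36 collagen genes.

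Basement membrane genes were higher in 13 and lower in 5 of 25 tested. The laminin chain gene Lama2 had 17.1, 14.5 and 16.6 against 2.78, 2.57 and 2.28 CPM (log2 fold change 2.66 ± 0.14, adjusted p = 7.5e-12), and Lamb3, of laminin-332, had 0.394, 0.184 and 0.372 against 7.59, 6.21 and 6.01 CPM (log2 fold change −4.37 ± 0.44, adjusted p = 1.1e-07). Fras1 (log2 fold change −3.16 ± 0.27, adjusted p = 9.1e-09) was lower and Col15a1 (log2 fold change 2.78 ± 0.39, adjusted p = 1.1e-05) higher, both under 10 CPM. Fras1 had means of 2.39, 1.22, 1.101 and 0.998 CPM in the other 4 Rtel1f/f groups and did not pass in the +Cre set (−0.61, adjusted p = 0.0645, interaction adjusted p = 5.2e-05). Of the 13 higher basement membrane genes 11 were higher again there and 1 was lower, and of the 5 lower genes 1 was lower again and 1 was higher. Genes of collagen modification and crosslinking were higher in 11 and lower in 6 of 29, and all 11 were higher and 4 of the 6 lower in the +Cre set. Loxl2, a lysyl oxidase, had 533, 507 and 507 against 31.8, 23.6 and 22.6 CPM (log2 fold change 4.31 ± 0.12, adjusted p = 2.1e-15). Sulf1, a heparan sulfatase grouped with these genes here, acts on heparan sulfate and not on collagen. It had 322, 305 and 317 against 16.4, 17.8 and 17.4 CPM (log2 fold change 4.19 ± 0.09, adjusted p = 7.7e-17). Tll1, a procollagen C-proteinase, had 103, 103 and 106 against 0.356, 0.144 and 0.1603 CPM (log2 fold change 8.89 ± 0.24, adjusted p = 1.5e-15). Pcolce2, an enhancer of that enzyme class, was higher (log2 fold change 5.63 ± 0.26, adjusted p = 1.3e-12).

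Matrix proteases and their inhibitors were higher in 27 and lower in 10 of 49 tested (median 0.53). The +Cre set had 36 higher and 4 lower (median 1.69), with 26 of the 27 higher again, 2 of the 10 lower again and 3 of the 10 higher. Mmp3, stromelysin, had 14.8, 16.7 and 16.9 against 0.08904, 0.0206 and 0.02003 CPM (log2 fold change 8.49 ± 0.38, adjusted p = 9.1e-12), and Serpine2, the inhibitor protease nexin-1, had 85.4, 88.5 and 90.9 against 0.156, 0.103 and 0.0801 CPM (log2 fold change 9.59 ± 0.21, adjusted p = 1.7e-16). Mmp9, gelatinase B, went the other way at 1.21, 0.6896 and 1.34 against 106, 153 and 145 CPM (log2 fold change −6.97 ± 0.28, adjusted p = 5.0e-13), and the other Rtel1f/f groups held means of 22.8, 6.34, 6.03 and 26.02 CPM, all below Rtel1f/f +GFP cells and above both Trf1f/f groups. Of 24 tested integrins and collagen receptors 12 were higher and 6 lower. Itga4 had 22.8, 22.7 and 21.96 against 0.178, 0.185 and 0.0801 CPM (log2 fold change 7.23 ± 0.24, adjusted p = 1.5e-14), the collagen receptor chain Itga11 had 88.9, 72.2 and 76.9 against 8.35, 10.8 and 10.2 CPM (log2 fold change 3.02 ± 0.14, adjusted p = 2.1e-12), Itga9 was higher (log2 fold change 2.48 ± 0.19, adjusted p = 2.4e-09), and Itga2, another collagen receptor chain, was lower (log2 fold change −2.48 ± 0.32, adjusted p = 1.7e-06) but did not pass in the +Cre set (adjusted p = 0.369). Of the 12 higher genes 9 were higher again there, and of the 6 lower 1 was lower again and 1 was higher.

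**Figure D4:**
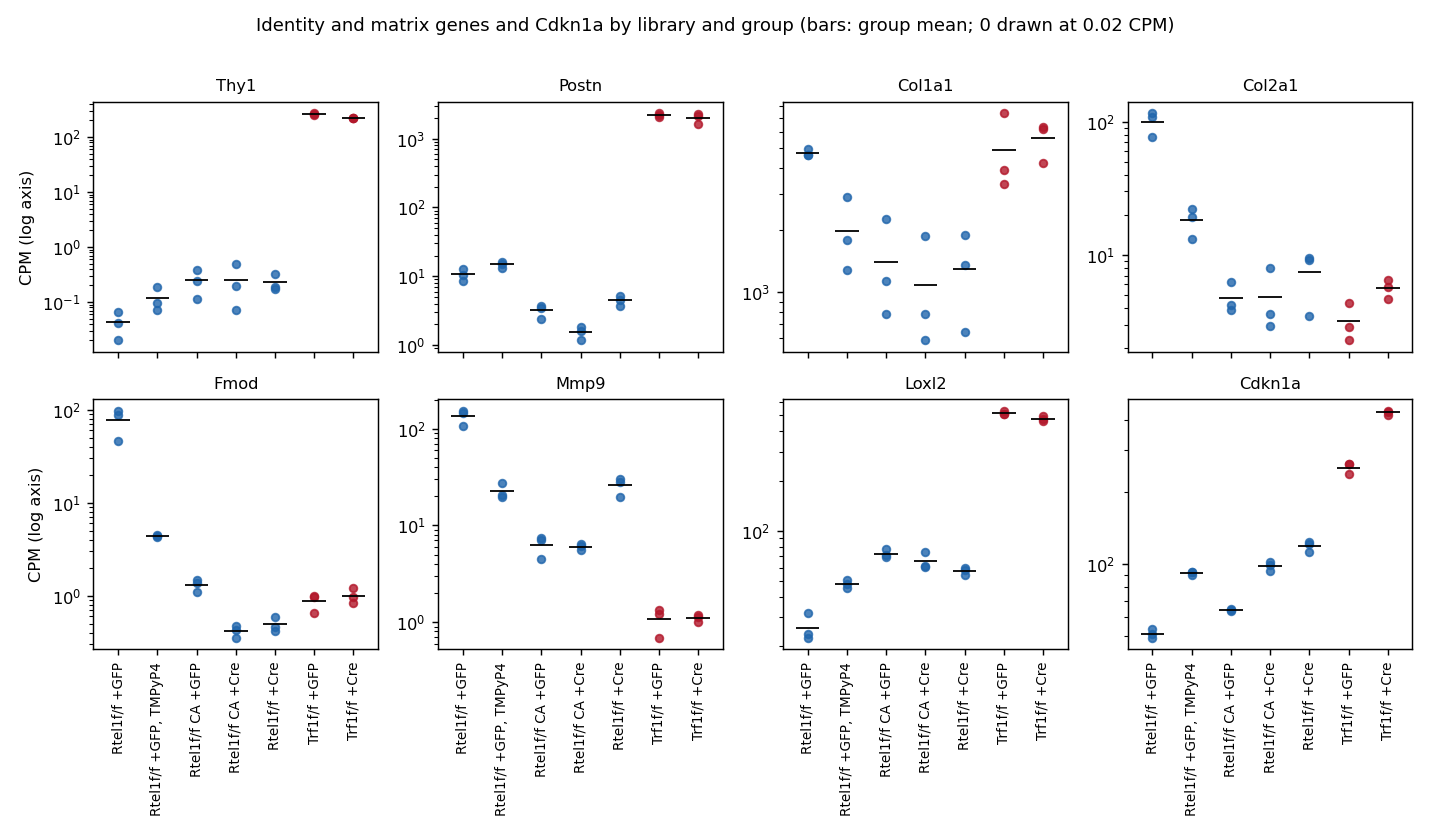
Level in CPM (log axis) of 8 genes in the 21 libraries, 1 point per library with a bar at the mean of each group, Rtel1f/f groups in blue and Trf1f/f groups in red. Thy1, Postn and Loxl2 separate the lines in every group, whereas Fmod and Col2a1 are high in Rtel1f/f +GFP cells alone and Col1a1 overlaps between Rtel1f/f +GFP and Trf1f/f +GFP cells.

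Transcripts of cell cycle genes were mostly lower in Trf1f/f +GFP. Of 50 cell cycle genes, all tested, 3 were higher and 32 lower in Trf1f/f +GFP (64.0% lower against 24.5% of all tested genes), with a median log2 fold change of −0.56. The kinesin Kif11 had 148, 164 and 166 against 347, 343 and 327 CPM (log2 fold change −1.09 ± 0.07, adjusted p = 4.5e-10), the DNA polymerase subunit Pole had 83.8, 79.5 and 82.002 against 193, 177 and 170.03 CPM (log2 fold change −1.14 ± 0.07, adjusted p = 1.8e-10), and Mybl2 (log2 fold change −1.16 ± 0.14, adjusted p = 6.2e-07) and the replication factor Gins2 (log2 fold change −1.20 ± 0.17, adjusted p = 5.6e-06) were lower. In the +Cre set 31 of the 32 were lower again, of 37 there.

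Of 30 tested p53 targets 21 were higher and 2 lower (median 0.78). Cdkn1a, the CDK inhibitor p21, had 261, 261 and 238 against 51.02, 49.1 and 53.2 CPM (log2 fold change 2.31 ± 0.06, adjusted p = 5.6e-16). Ccng1, cyclin G1, had 443, 458 and 466 against 92.999, 84.1 and 82.1 CPM (log2 fold change 2.40 ± 0.09, adjusted p = 4.7e-14), and Eda2r, a death receptor family member, had 39.1, 42.1 and 40.9 against 5.32, 3.76 and 3.61 CPM (log2 fold change 3.27 ± 0.13, adjusted p = 1.9e-13). The death receptor Fas was lower at 6.61, 7.19 and 7.47 against 29.05, 42.8 and 41.4 CPM (log2 fold change −2.41 ± 0.17, adjusted p = 6.3e-10), where the Rtel1f/f +GFP libraries again stood above their line, and it did not pass in the +Cre set (adjusted p = 0.118). Of the 21, 19 were higher in the +Cre set. The summed level of the list was 2241 to 2288 TPM in Trf1f/f +GFP and 3105 to 3243 TPM in Trf1f/f +Cre libraries. In RTEL1 CA cells it was 1430 to 1533 TPM with GFP and 1605 to 1634 TPM with Cre. The part of the deletions in the +Cre set was not tested. Rtel1f/f +GFP cells were below the other 12 Rtel1f/f libraries in 13 of the 30 targets (43.3%, against 18.3% of all tested genes).

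All 29 genes of the Trp53, Rb and CDK inhibitor list were tested, 8 higher and 11 lower in Trf1f/f +GFP. Trp53 itself had 152, 153 and 139 against 201, 175 and 179 CPM, lower with a call that was lost without 1 library of either group (log2 fold change −0.32 ± 0.09, adjusted p = 0.00388, up to 0.0240). Its inhibitors Mdm2 (198, 215 and 214 against 77.4, 76.2 and 74.96 CPM, log2 fold change 1.46 ± 0.08, adjusted p = 1.7e-11) and Mdm4 (log2 fold change 0.67 ± 0.11, adjusted p = 4.6e-05) were higher, as were Rb1 (log2 fold change 0.86 ± 0.10, adjusted p = 5.9e-07) and the cyclin genes Ccnd2 (log2 fold change 1.92 ± 0.15, adjusted p = 2.5e-09) and Ccne1 (58.6, 61.1 and 58.4 against 10.8, 8.901 and 9.796 CPM, log2 fold change 2.59 ± 0.08, adjusted p = 7.1e-15). Mycn had too few counts in Rtel1f/f +GFP for a fitted fold, with a ratio of 14.1-fold (95% interval 5.19 to 53.9). Mtap was higher (0.47), a call lost without 1 Rtel1f/f +GFP library, and lower in the +Cre set (−0.38, interaction adjusted p = 1.1e-04).

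Lower were the kinase genes Cdk4 (−0.31 ± 0.07) and Cdk6 (−0.84 ± 0.12), the E2F genes E2f2 (−1.67 ± 0.12), E2f3 (−0.43 ± 0.08), E2f7 (−0.72 ± 0.05) and E2f8 (−0.78 ± 0.07), Rbl1 (−0.51 ± 0.10), Rbl2 (−0.19 ± 0.06) and Ccne2 (−0.51 ± 0.13), as log2 fold changes. The last 2 lost their calls in 9 and in 2 of 13 alternative fits. Cdkn2a, which encodes p16INK4A and p19ARF, was at 283, 221 and 174 against 398, 419 and 456 CPM and did not pass (adjusted p = 0.0258). Of the 8 higher genes 5 were higher and 1 was lower in the +Cre set, and 7 of the 11 lower genes were lower. Those named here that did not pass there were Mdm4, Mycn, Cdk4, Rbl1, Rbl2 and Trp53.

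Of 18 tested shelterin, RTEL1 and telomerase genes none was higher and 8 were lower, each by less than 2-fold. In the +Cre set 7 of the 8 were lower again, Rtel1 among them. For Rtel1 that set cannot repeat the line difference, since its RTEL1 CA +Cre cells had the floxed Rtel1 deleted and carried the RTEL1 CA vector. Acd, the shelterin subunit TPP1, had 32.3, 33.6 and 32.1 against 49.97, 54.1 and 58.7 CPM (log2 fold change −0.73 ± 0.09, adjusted p = 1.6e-06), but its mean in the other Rtel1f/f groups was 43.3, 36.6, 35.3 and 33.6 CPM and it did not pass in the +Cre set (adjusted p = 0.316). Terf2ip, the subunit RAP1, was lower (log2 fold change −0.41 ± 0.07, adjusted p = 9.7e-05), as were the telomerase ribonucleoprotein genes Gar1 (log2 fold change −0.66 ± 0.09, adjusted p = 4.1e-06) and Dkc1 (log2 fold change −0.47 ± 0.11, adjusted p = 9.8e-04), the latter without a call when only the 6 libraries were fitted (adjusted p = 0.0153). Nnt, a mitochondrial transhydrogenase gene, had 66.7, 67.1 and 67.7 against 112, 114 and 111 CPM (log2 fold change −0.74 ± 0.05, adjusted p = 1.9e-10).

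Over all tested genes, the largest differences among those called with a mean of at least 5 CPM included many of the genes above. The 10 highest in Trf1f/f +GFP were the 4 Y-linked genes, Thy1, Hoxd11, Hoxd13, Tfap2b, the glycosyltransferase gene Wbscr17 (34.2, 29.9 and 31.9 CPM and 0 counts, at least 509-fold higher) and Dynap (16.5, 17.6 and 16.6 CPM and 0 counts, at least 269-fold higher). Among the 10 lowest were Xist, Foxd1, Fmod, Mmp9 and Col6a4. Also among them, the tight junction gene Cldn1 had 1.55, 1.49 and 1.66 against 157, 134 and 133 CPM (log2 fold change −6.49 ± 0.16, adjusted p = 5.6e-16), the sorting receptor gene Sorcs1 had 0.673, 0.414 and 0.794 against 41.2, 87.1 and 69.1 CPM (log2 fold change −6.71 ± 0.26, adjusted p = 1.7e-13), and Klra18, of a family of close copies, had 0.162, 0.207 and 0.124 against 37.4, 24.6 and 30.1 CPM (log2 fold change −7.51 ± 0.36, adjusted p = 1.0e-11).

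Megf6 had 1.18, 0.437 and 0.447 against 36.8, 50.8 and 50.7 CPM (log2 fold change −6.05 ± 0.63, adjusted p = 2.5e-07), but means of 1.21 CPM in Rtel1f/f +Cre and 7.15 CPM with TMPyP4, and did not pass in the +Cre set.

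Some genes were found in one line alone, by a rule chosen after the data were seen (at least 1 CPM in each library of one group and 3 counts or fewer in each of the other). There were 155 in Trf1f/f +GFP and 16 in Rtel1f/f +GFP. Of the 155, 93 were at 3 counts or fewer in all 15 Rtel1f/f libraries and 136 were at 1 CPM or more in all 6 Trf1f/f libraries. Of the 16, 9 were at 3 counts or fewer in all 6 Trf1f/f libraries and 4 were at 1 CPM or more in all 15 Rtel1f/f libraries.

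Expression also differed by chromosome. Over 13681 tested genes with a RefSeq position, the median log2 fold change ran from −0.53 on chromosome 13 (522 genes, 57.3% lower and 11.9% higher) to 0.53 on chromosome 12 (474 genes, 61.6% higher and 7.81% lower). Chromosomes 17 (−0.46), 3 (−0.41), 19 (−0.37) and 15 (−0.32) were low and chromosome 14 (0.33) was high, while chromosome X was at 0.07. In 17 of 20 chromosomes the library medians of both groups did not overlap. In the +Cre set the median was −0.63 on chromosome 13, 0.51 on chromosome 12, −0.45 on chromosome 3, −0.28 on chromosome 17 and −0.11 on chromosome 15, where it was smaller than above, and 18 of the 20 medians had the same sign. The median of chromosome 18 was 0.23 and fell to 0.01 there. These medians are descriptions without a test.

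Within chromosomes, runs of 50 consecutive tested genes were compared. The lowest median was −0.78, at chr17:24155833-25232224, where 2 of the 50 genes had a positive log2 fold change, and the same run was at −0.61 in the +Cre set. The highest, 0.70, was at chr12:84970930-98920537, where 46 of 50 were positive, and it was at 0.76 in the +Cre set. A run at chr17:34647146-35833920, which lies in the major histocompatibility complex, was at −0.69 but at 0.09 in the +Cre set.

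**Figure D5:**
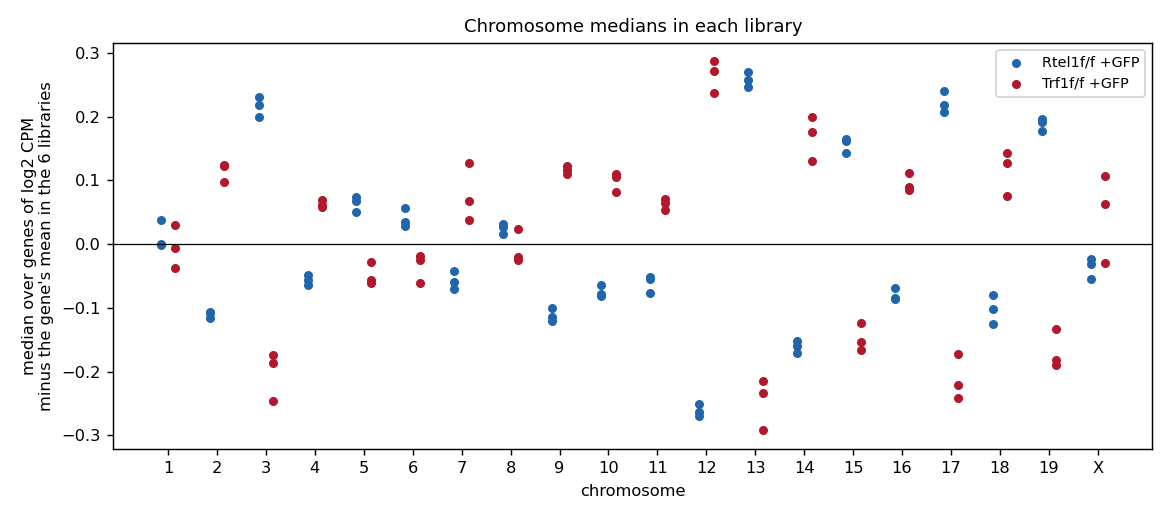
Median over the tested genes of each chromosome (horizontal axis) of log2 CPM minus the mean of that gene in the 6 libraries (vertical axis), 1 point per library, Rtel1f/f +GFP in blue and Trf1f/f +GFP in red. Chromosomes 12 and 14 are higher and chromosomes 3, 13, 15, 17 and 19 lower in all 3 Trf1f/f +GFP libraries.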

How the data were processed

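RNA sequencing libraries of mouse embryonic fibroblasts were made by the authors with 3 replicates in each of 7 groups. Per the labels, reads were 101 bases long. The submitters' processing notes name cutadapt 1.9.1, STAR 2.5.2a, RSEM 1.3.0 and DESeq2 1.28.0. The authors deposited RSEM expected counts per gene, already in whole numbers, and TPM values, which were used where levels of genes are summed or set side by side. CPM was computed here from the counts with TMM scaling.

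Counts of all 21 libraries were fitted with edgeR 4.0.16 in R 4.3.3 (TMM scaling, filterByExpr by group, robust quasi-likelihood fit, 1 coefficient per group, 14 residual degrees of freedom), which left 13719 of 24454 genes. Tests were two-sided with Benjamini-Hochberg adjustment over all tested genes and a threshold of 0.01. DESeq2 1.42.0 was the alternative. The scripts were tested on simulated data.

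Groups came from the labels. The members, gene lists and tests were chosen with earlier results of these data known. Named were Rtel1 and Terf1, all genes of the sex chromosome list, the called or undetected genes of the Trp53 and Rb list and Nnt, up to 4 called genes of each other list with the largest change, at least 1 CPM and no overlap, the 10 largest rises and 10 largest falls at 5 CPM or more, and the 5 fibroblast markers of highest TPM. Cd34, Cdkn2a, Ifitm1, Ifitm2, Slfn9, Trafd1, Ifnb1 and the genes so described in the text were named after their values were seen. Alternatives were DESeq2, other scalings and filters, a replicate block, the 6 libraries alone, other thresholds, other libraries of the same lines and leaving out each replicate. Intervals cover counting error only. Positions and promoters are from RefSeq, GRCm38.p6. Some genes that these rules name are not reported here.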

Additional observations from a re-analysis of the deposited data

Results flagged for a closer look

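The line difference itself depended on which libraries were compared. Between the +GFP set (Trf1f/f +GFP against Rtel1f/f +GFP) and the +Cre set (Trf1f/f +Cre against RTEL1 CA +Cre), which share no library, 4494 of 13719 tested genes differed by the interaction term of the edgeR fit at a Benjamini-Hochberg adjusted p of at most 0.01. Among the 149 tested genes named by rule, 78 did so, and 6 were called in opposite directions. The difference between the 2 log2 fold changes, +GFP set minus +Cre set, was −7.71 for Fmod, −5.78 for Prelp, −5.20 for Col23a1, 3.16 for Msln, 1.38 for S100a4 and 0.85 for Mtap. The sets differ in Cre, in the RTEL1 CA vector and in the deletions of Terf1 and of the floxed Rtel1, and the interaction term cannot tell these apart. For Fmod, the group means were 0.869 CPM in Trf1f/f +GFP and 0.998 CPM in Trf1f/f +Cre cells. They were 77.4 CPM in Rtel1f/f +GFP, 1.31 and 0.417 CPM in RTEL1 CA cells with GFP and Cre, and 0.493 CPM in Rtel1f/f +Cre cells. The causes were not tested.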

How the results depend on the processing

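A minimum absolute log2 fold change of 1 left 3019 called genes, 1964 higher and 1055 lower in Trf1f/f +GFP, and left 1 lower interferon-stimulated gene and 8 lower matrix glycoprotein genes. Requiring at least 10 counts in all 6 libraries removes genes absent from one line, and left 4 higher Hox genes and 9 higher and 3 lower collagen genes. Leaving out 1 replicate gave 6640 to 7111 called genes, 3558 to 3994 higher and 2926 to 3232 lower, with 62 higher and 1 to 2 lower interferon-stimulated genes, 18 to 19 GTPases, 13 higher and 15 to 16 lower Hox genes, 14 to 16 higher and 4 to 6 lower collagens, and 34 to 35 higher and 12 to 15 lower glycoproteins. The 1 lower interferon-stimulated gene was found without replicate 2 of either group. DESeq2 called 7722 of 15340 genes, and an adjusted p of at most 0.05 called 8883. The numbers of the replicates did not pair the samples, since same-numbered libraries deviated with correlations of 0.042, −0.064 and −0.089 over 11840 genes and not every library correlated best with its own number. With the replicate number as a replicate block 8541 genes were called, 4559 higher and 3982 lower. Over 149 named genes, 1848 of 1887 values kept direction and side of the threshold and 39 fell below it, in 9 genes, with no reversal. With genes of at least 5 CPM alone, 10 of 20 chromosome medians moved by more than the spread between replicates and none changed sign.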
